A study of Homo sapiens with 6 samples.

Results

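The genes described here are 10 genes of glucose uptake and glycolysis: SLC2A1, HK1, HK2, PFKP, ALDOA, TPI1, GAPDH, PGK1, ENO1 and LDHA. They were chosen by name, and each had 1 probe set with its symbol in the platform's probe table, so that 10 of 7713 named genes, and 10 of the 8746 probe sets that are not controls, were followed. GAPDH was also measured by 3 of the 47 control probe sets, at the 3′ end, in the middle and at the 5′ end of its transcript. The RNA came from A549, an established line of human lung adenocarcinoma, and was hybridised to 6 one-colour oligonucleotide arrays. The treated group, cisplatin 1 to 3, had been exposed for 1 hour to 50 µM cisplatin, which forms platinum crosslinks in DNA. The untreated group, control 1 to 3, had spent that hour in medium without the drug, and both were left in fresh medium without drug for another 10 hours before RNA was taken. The labels report 3 independent experiments but do not say which control array belongs with which treated one, and A549 stands for a single tumour.

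Glycolysis converts glucose to pyruvate in the cytosol and yields ATP and NADH without oxygen. Tumour cells often run it fast even where oxygen is present and export the product as lactate, and lung adenocarcinoma lines are a common model of this. The transcription factors HIF-1 and MYC are known to raise many of its genes, while p53, which A549 cells carry in its normal form, is known to induce TIGAR, a phosphatase that slows the pathway.

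The deposited values are intensities, some of them below 0, and the small number of arrays, 6, is a limit to their precision. The median intensity per array ran from 57.2 to 67.2. CDKN1A, the p53 target that marks the response to the drug, was 1467, 1370.3 and 1429 after cisplatin, against 249, 281 and 241 in control cells (log2 fold 2.42, adjusted p = 4.74e-06 in limma). The first principal component, with 39.9% of the variance, set cisplatin 2 and control 1 (scores of 17.1 and 14.4) away from the other arrays (-12.4 to -1.69), so values without both are given beside several genes. The epithelial keratin genes KRT8 and KRT18 were bright, with means of 1957 and 5595 after cisplatin and 2145 and 5809.6 in control cells. EPCAM and CDH1, also epithelial markers, were dim at 32.7 and 37.2 after cisplatin and 33.3 and 37.3 in control cells. Of 12 measured markers of blood, endothelium and stroma, 8 were bright enough to be tested, and their summed intensity was 623 to 668 after cisplatin and 529 to 586 in control cells. The muscle and stromal marker ACTA2 had the largest part in that sum, with means of 259 after cisplatin and 184 in control cells (log2 fold 0.47, unadjusted p = 0.0135, adjusted p = 0.664 in limma). The leukocyte markers CD3E and CD14 and the endothelial marker PECAM1 averaged 45.95, 42.8 and 69.6 after cisplatin and 39.7, 46.9 and 61.2 in control cells. The stromal marker COL1A1 averaged 95.5 after cisplatin and 102 in control cells. PTPRC, VWF, CDH5 and COL3A1 were below the brightness needed for the test, with means of 1.56 to 14.7 after cisplatin and 1.25 to 13.7 in control cells. The labels name A549 cells alone for all 6 arrays, and the source of these marker signals was not tested.

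The question asked of the 10 genes was whether their transcripts differ 10 hours after cisplatin. None of the 9 that were bright enough to be tested passed the threshold of an adjusted p under 0.05 in limma, and 0 of the 9 reached an unadjusted p under 0.05. Over all 6559 tested probe sets the shares were 0.290% and 5.03%. All 9 had an adjusted p of 0.999, and their log2 folds of cisplatin over control lay between -0.12 for ENO1 and 0.10 for HK1. The cisplatin and control values overlapped for all 9, while in 11.0% of all tested probe sets the groups were fully separated. The 95% intervals of the 9 log2 folds, not adjusted for the number of genes, all lay inside a 1.5-fold difference in either direction (0.58 on the log2 scale), as did those of 66.5% of all tested probe sets. The remaining gene, HK2, was too dim for the test. Of the 9 log2 folds 7 were below 0, against 39.5% over all tested probe sets. With the arrays as deposited the median log2 fold was -0.04 for the 9 genes and 0.04 for all probe sets tested. The intensities compare transcripts within the RNA of each culture and do not measure the number of cells or the RNA per cell. Centring the arrays shifts the log2 folds of all genes alike. With arrays centred on the median, the medians were -0.12 and -0.03, with 8 of the 9 genes and 58.7% of all tested probe sets below 0. Quantile normalization, which shifts genes unequally, gave medians of -0.02 and -0.00088, with 6 of the 9 genes and 50.1% of all below 0. With arrays centred on GAPDH, the medians were 0.00016 for the other 8 genes and 0.08 for all, with 3 of the 8 and 28.9% of all below 0.

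**Figure D1:**
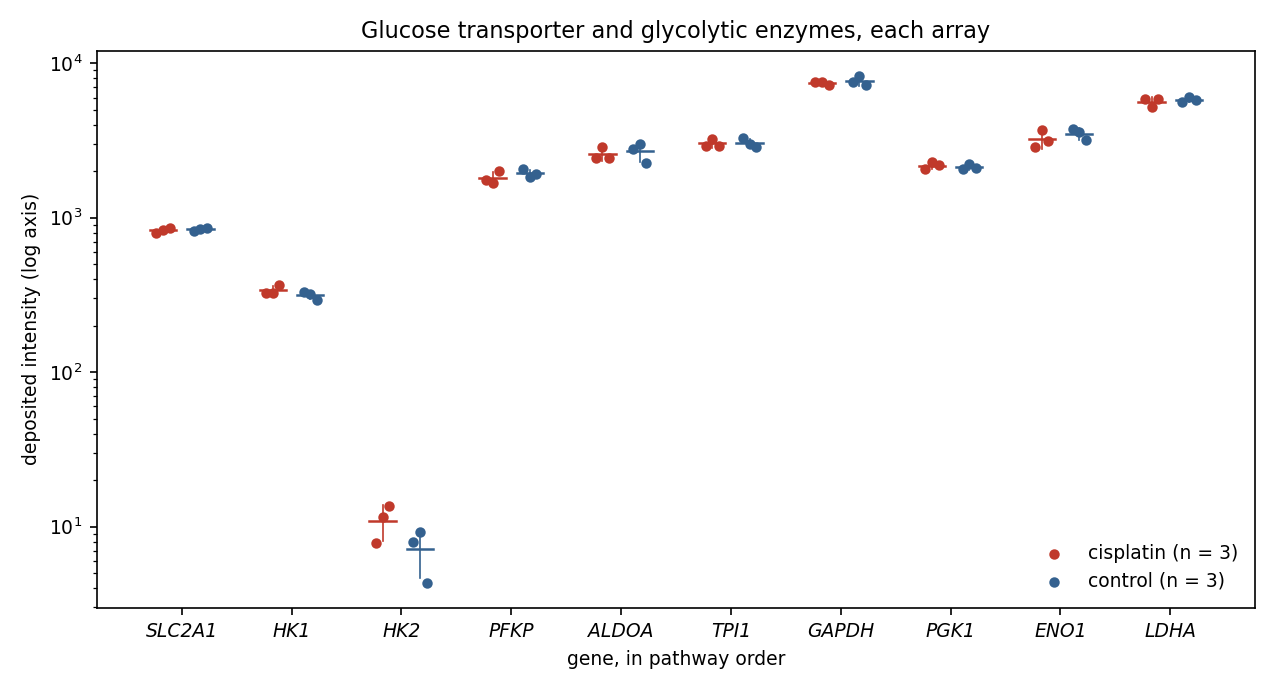
Deposited intensity on a log axis for the 10 genes in pathway order; each point is 1 array, horizontal bars are means and vertical lines SD, with cisplatin (red) left of control (blue), n = 3 each. The groups overlap for all genes, and HK2 alone lies near the bottom of the range, between 4.34 and 13.5.

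Promoters of 3 genes are shown, the bright LDHA and PGK1 and the dim HK2, because each holds the core letters of the HIF-1 site. They are the 250 bases before the annotated start of the gene, from RefSeq on GRCh38.p14, read 5′ to 3′ on the strand of the gene. Capitals mark ACGTG on either strand, which reads CACGT on the other.
LDHA, chr11:18394313-18394562, plus strand: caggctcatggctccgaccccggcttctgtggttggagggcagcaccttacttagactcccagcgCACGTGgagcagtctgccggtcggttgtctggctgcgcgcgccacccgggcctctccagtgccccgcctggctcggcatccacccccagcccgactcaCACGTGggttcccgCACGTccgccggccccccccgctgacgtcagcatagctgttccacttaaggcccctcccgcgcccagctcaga
PGK1, chrX:78103998-78104247, plus strand: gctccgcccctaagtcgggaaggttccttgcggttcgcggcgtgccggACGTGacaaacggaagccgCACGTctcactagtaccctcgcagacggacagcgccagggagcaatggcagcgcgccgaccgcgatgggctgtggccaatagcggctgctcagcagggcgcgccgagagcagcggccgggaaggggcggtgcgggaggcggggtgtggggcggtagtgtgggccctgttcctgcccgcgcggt
HK2, chr2:74833877-74834126, plus strand: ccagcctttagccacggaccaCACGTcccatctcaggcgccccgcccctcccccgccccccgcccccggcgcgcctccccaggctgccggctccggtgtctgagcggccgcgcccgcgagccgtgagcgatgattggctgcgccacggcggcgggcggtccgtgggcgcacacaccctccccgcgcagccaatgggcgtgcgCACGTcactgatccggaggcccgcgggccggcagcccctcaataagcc
Of the 10 genes, 7 had such a window, and in 4 of these, ALDOA, HK2, LDHA and PGK1, ACGTG was found on at least 1 strand. It was found in 18.7% of 24882 windows of the same kind. The longer letters CACGTG, the E box that MYC and related factors bind, contain ACGTG on both strands and were found in LDHA alone of the 7, at 2 places, against 6.43% of all windows. The GC box GGGCGG was found in 4 of the 7, ENO1, HK2, PGK1 and SLC2A1, against 41.7% of all windows. These matches describe the letters of the windows and do not show binding.

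SLC2A1 encodes GLUT1, the transporter that brings glucose into most cells. Its intensity was 798, 836 and 858 on cisplatin 1 to 3, against 819, 843 and 858 on control 1 to 3. The lowest and the highest of the 6 values were both cisplatin values, and the control values lay between them. The means were 831 ± 30.6 after cisplatin and 839.8 ± 19.8 in control cells (SD, n = 3 each), and the log2 fold was -0.02 (95% interval -0.21 to 0.17 in limma). SLC2A1 had the smallest spread within groups of the 9 tested genes, an SD of 0.04 on the log2 scale where the limma trend at its brightness gave 0.13.

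Hexokinases phosphorylate glucose and so keep it inside the cell. HK1, the form found in most tissues, had 327, 324 and 366 after cisplatin, against 331, 321 and 294 in control cells. Cisplatin 3 was the highest and control 3 the lowest, while the other 4 arrays differed little. The means were 339 ± 23.0 after cisplatin and 315 ± 18.8 in control cells, with a log2 fold of 0.10 (95% interval -0.15 to 0.36). This was the highest fold of the 9 genes and stayed above 0 in all 19 alternative settings, from 0.03 to 0.17, with an adjusted p of 0.647 or more in each. The folds of PFKP and ENO1 kept their sign in all 19 settings as well, below 0. HK2, the form of muscle, fat and many tumours, whose promoter is shown above, had 7.79, 11.5 and 13.5 after cisplatin, against 7.90, 9.27 and 4.34 in control cells. These values lay between percentiles 3.88 and 13.3 of the probe sets of their arrays, around the offset of 11.8 added before taking logs, and below the brightness needed for the test. No fold is given for it, and the low signal of this 1 probe set does not show that the transcript was absent.

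PFKP encodes the platelet form of phosphofructokinase, the main control point of the pathway. It had 1748, 1679 and 1994 after cisplatin, against 2057, 1847 and 1922 in control cells. Cisplatin 1 and 2 lay below all controls, but cisplatin 3 lay above 2 of them. Its means were 1807 ± 166 after cisplatin and 1942 ± 106 in control cells, and its log2 fold was -0.11 (95% interval -0.30 to 0.09), or -0.01 without control 1 and cisplatin 2. ALDOA encodes aldolase A, which splits fructose bisphosphate into a pair of triose phosphates. Its values were 2453, 2885 and 2446 after cisplatin, against 2802, 3013 and 2262 in control cells, so that control arrays held both the highest and the lowest. The log2 fold was -0.05 (95% interval -0.30 to 0.20), and ALDOA had the widest spread within groups of the 9 genes, an SD of 0.18. TPI1 encodes the isomerase that converts 1 triose phosphate into the other. It had 2919, 3232 and 2929.8 after cisplatin, against 3269, 3014 and 2851 in control cells, with the closest fold to 0 of the 9 (log2 -0.01, 95% interval -0.17 to 0.15). TPI1 and ALDOA were both highest among treated arrays on cisplatin 2 and lowest among controls on control 3.

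GAPDH encodes the dehydrogenase that makes the NADH of the pathway, and it serves as a loading reference in many laboratories. It had 7571, 7567 and 7214 after cisplatin, against 7557, 8267.5 and 7249 in control cells. All but control 2 lay within a narrow band, and that array was the highest. The means were 7451 ± 205 after cisplatin and 7691 ± 522 in control cells, with a log2 fold of -0.04 (95% interval -0.17 to 0.08). With the arrays as deposited, a shift beyond 0.89 or 1.06 times the control level thus lay outside the interval. With arrays centred on the median the log2 fold was -0.12, and over 18 alternative settings the 95% intervals reached from -0.30 to 0.21. The control probe sets, which were not tested, gave like values at the 3′ end, 7708, 7658 and 7771 after cisplatin against 7597, 7991 and 7505 in control cells. In the middle of the transcript they gave 5977, 6473 and 6446 after cisplatin and 6979, 6991 and 6043 in control cells. At the 5′ end they gave 3259.7, 3697 and 3642 after cisplatin and 4137, 3611 and 3393 in control cells. The signal was thus lower towards the 5′ end on all 6 arrays, most so on cisplatin 1 and least on control 1. The 3′/5′ ratio of GAPDH, a measure of RNA integrity and of labelling from the poly(A) tail, was 2.36, 2.07 and 2.13 after cisplatin and 1.84, 2.21 and 2.21 in control cells. The same ratio of ACTB was 3.67, 2.67 and 2.94 after cisplatin and 2.20, 2.98 and 2.95 in control cells. The GAPDH and ALDOA probe sets carry the suffix x, which marks probes that can also match other transcripts, so pseudogene copies could add to their signal. The probe sets of KRT8 and KRT18 above and of LDHB below carry this suffix too.

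**Figure D2:**
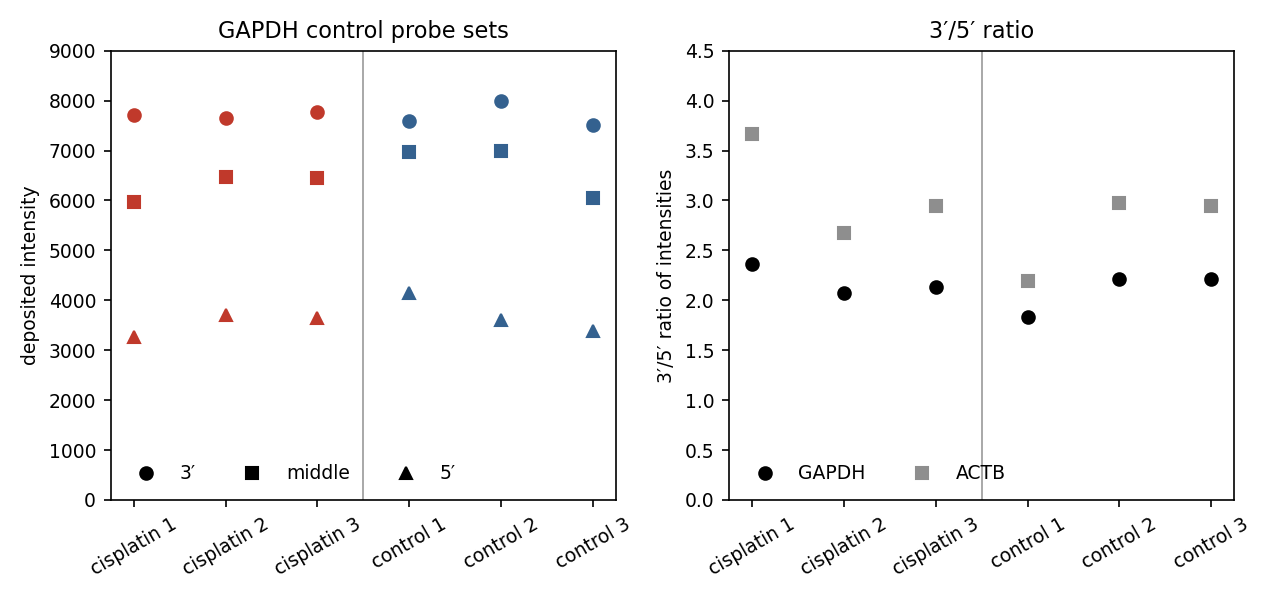
Left, deposited intensity of the GAPDH control probe sets at the 3′ end, middle and 5′ end on each array, cisplatin (red) left of control (blue); right, the 3′/5′ ratio of GAPDH and ACTB on the same arrays. The 3′ signals of GAPDH lie between 7505 and 7991 on all arrays, while its 3′/5′ ratio is highest on cisplatin 1 (2.36) and lowest on control 1 (1.84).

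PGK1 encodes the kinase that yields the first ATP of the pathway and is also used as a reference gene. It had 2062, 2285 and 2187 after cisplatin, against 2055, 2219 and 2112 in control cells. The groups spanned nearly the same range, with means of 2178 ± 112 after cisplatin and 2129 ± 83.2 in control cells. The log2 fold was 0.03 (95% interval -0.12 to 0.19) with the arrays as deposited and -0.04 with arrays centred on the median.

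ENO1 encodes enolase 1, which makes phosphoenolpyruvate. Its values were 2860.2, 3713 and 3135 after cisplatin, against 3738, 3604 and 3165 in control cells. Cisplatin 1 and 3 had the lowest values, but cisplatin 2 was nearly as high as the highest control. The means were 3236 ± 435 after cisplatin and 3503 ± 299.9 in control cells, and the log2 fold of -0.12 (95% interval -0.34 to 0.11) was the lowest of the 9 genes. Single arrays moved it both ways: the log2 fold was -0.03 without cisplatin 1 and -0.07 without control 1, but -0.19 without control 3 and -0.22 without cisplatin 2 (unadjusted p = 0.0321, adjusted p = 0.757 in limma). Without control 1 and cisplatin 2 together it was -0.17 (adjusted p = 0.706). ENO1 was lowest on cisplatin 1, which had the highest 3′/5′ ratios, and highest on control 1, which had the lowest. With the log2 3′/5′ ratio of ACTB in the limma model the log2 fold of ENO1 was -0.02, and with that of GAPDH -0.05, where the model without them gave -0.12. The highest ratios were in the cisplatin group and the lowest in the control group. Whether the ratio bears on the fold of ENO1 was not tested. LDHA encodes the muscle subunit of lactate dehydrogenase, which turns pyruvate into lactate, and its promoter is shown above. It had 5874, 5232 and 5857 after cisplatin, against 5605, 6069.9 and 5797 in control cells. Cisplatin 2 was the lowest and control 2 the highest, and the others lay close together. Its means were 5654 ± 366 after cisplatin and 5824 ± 234 in control cells, and its log2 fold was -0.04 (95% interval -0.18 to 0.09).

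**Figure D3:**
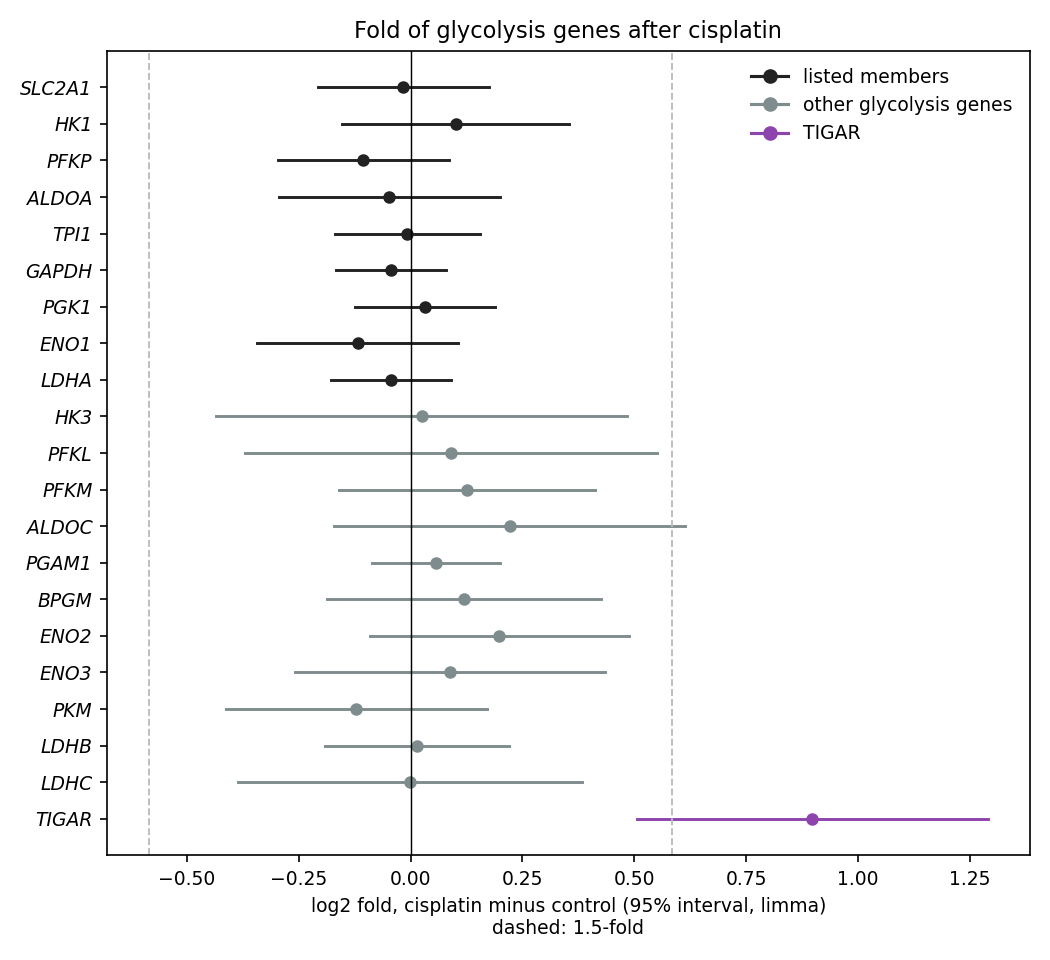
Log2 fold of cisplatin minus control with 95% intervals from limma for the 9 tested listed genes (black), the 11 other tested genes of the pathway (grey) and TIGAR (purple); dashed lines mark 1.5-fold. The black folds lie between -0.12 and 0.10, and all of their intervals include 0 and stay inside the dashed lines.

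The genes did not share one pattern over the arrays. Centred on the mean of the 6 arrays on the log2 scale, ENO1 was 0.15 above its mean on cisplatin 2 and 0.16 above it on control 1, the 2 arrays that stood apart. ALDOA was 0.13 and 0.09 above its mean on these arrays and TPI1 0.09 and 0.11. LDHA went the other way, at -0.13 on cisplatin 2 and -0.03 on control 1. LDHB, which encodes the heart subunit of the same enzyme, had -0.12 on cisplatin 2 and -0.21 on control 1. PKM, which encodes the pyruvate kinase of most tissues, was furthest above its mean on control 1 (0.31) and lowest on cisplatin 1 (-0.24), the arrays with the lowest and the highest 3′/5′ ratio. PFKP was low on cisplatin 2 (-0.15) and high on control 1 (0.14). The folds of PKM, LDHB, LDHC, ALDOA and TPI1, none of them called, had the other sign with the ACTB ratio in the model. The fold of LDHC was 0.11 with the ACTB ratio and 0.06 with the GAPDH ratio, where it was -0.0012 without them. The log2 fold of PKM was 0.03 with the ACTB ratio and -0.02 with the GAPDH ratio, where it was -0.12 without them. The fold of LDHB was -0.10 with the ACTB ratio and -0.07 with the GAPDH ratio, where it was 0.01 without them. That of ALDOA was 0.01 with the ACTB ratio and -0.0091 with the GAPDH ratio, where it was -0.05 without them. TPI1 had a fold of 0.05 with the ACTB ratio and 0.03 with the GAPDH ratio, against -0.01 without them. Whether the 3′/5′ ratio bears on any of these folds was not tested. Averaged over the 9 genes, the deviation was -0.06, 0.02 and 0.0027 on cisplatin 1 to 3 and 0.04, 0.06 and -0.06 on control 1 to 3.

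**Figure D4:**
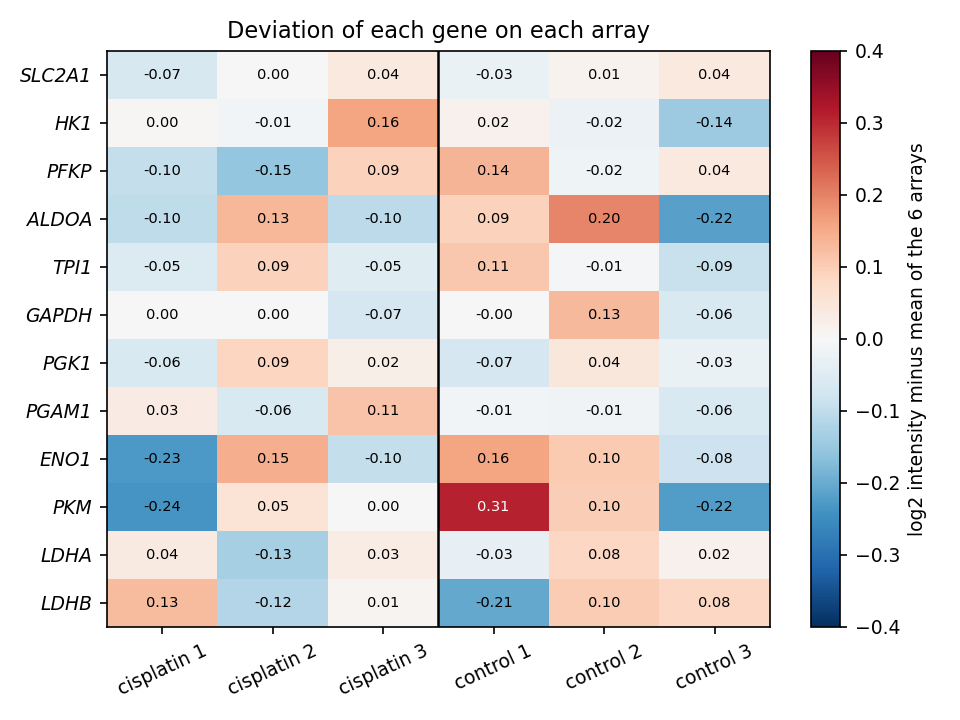
Log2 intensity of each gene minus its mean over the 6 arrays, by array, with cisplatin left of control; red is above and blue below the mean, and PGAM1, PKM and LDHB are shown beside the listed genes. ENO1, ALDOA and TPI1 are above their means on cisplatin 2 and control 1, and LDHA and LDHB are below theirs.

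The spread between arrays of the same group bears on what could have been seen. The median within-group SD was 0.09 over the 9 genes (from 0.04 for SLC2A1 to 0.18 for ALDOA) and 0.19 over all tested probe sets. Bright probe sets vary less, and the limma trend gave 0.06 at the brightness of GAPDH, where the SD was 0.07, and 0.08 at that of ENO1, where it was 0.16. Among 7 other tested genes that often serve as references, 0 passed the threshold in limma, 0 reached an unadjusted p under 0.05, and the log2 folds ran from -0.17 for YWHAZ, a 14-3-3 protein gene, to 0.17 for GUSB, the gene of a lysosomal enzyme. YWHAZ had means of 1570.4 ± 48.1 after cisplatin and 1775 ± 138 in control cells (adjusted p = 0.977), and GUSB 349 ± 21.1 after cisplatin and 309 ± 6.68 in control cells (adjusted p = 0.999). These 2 were named for their low p in the list, and they were the 2 of 7 whose groups did not overlap, beside 11.0% of all tested probe sets.

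**Figure D5:**
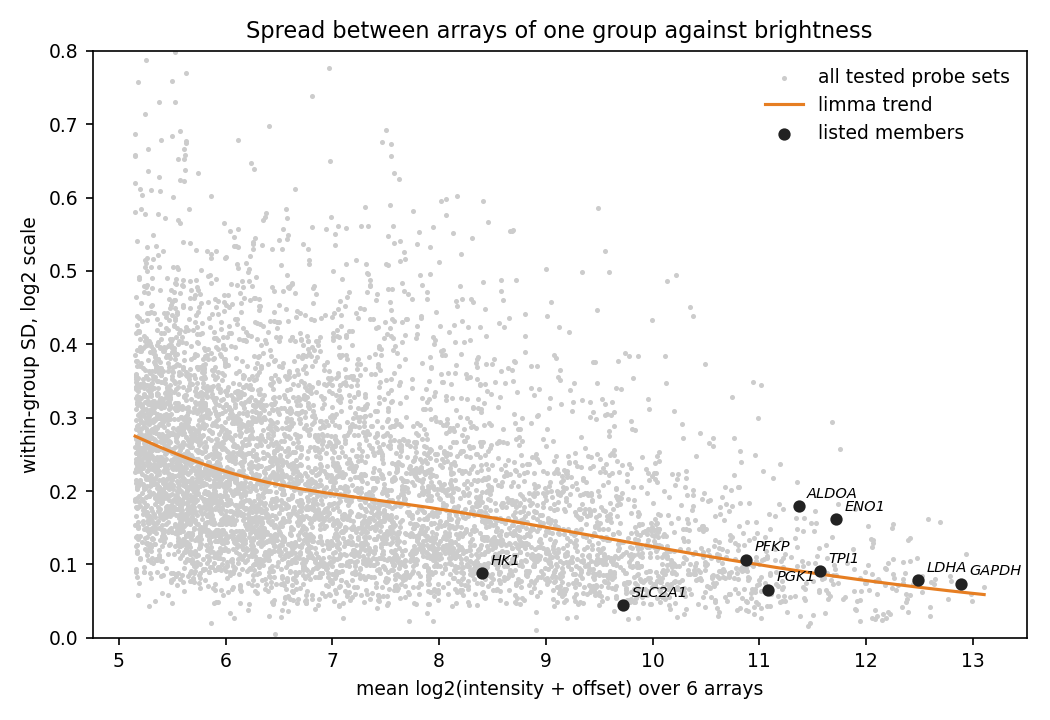
Within-group SD on the log2 scale against mean log2 intensity for all 6559 tested probe sets (grey), the limma trend (orange) and the 9 tested genes (black); 11 probe sets with an SD above 0.8 are beyond the axis. SLC2A1, HK1 and PGK1 lie below the trend, with an SD of 0.04, 0.09 and 0.07, and ALDOA and ENO1 lie furthest above it, with 0.18 and 0.16.

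Among the other genes of the pathway, too, limma called 0. Of 19 listed isoforms and enzymes of steps not covered above, 14 had a named probe set, 11 were tested, 0 passed the threshold in limma and 0 reached an unadjusted p under 0.05. Of the 11 folds 9 were above 0 and 2 below, where 39.5% of all tested probe sets were below 0. The median log2 fold of the 11 was 0.09, beside 0.04 for all tested probe sets. PGAM1, the gene of phosphoglycerate mutase, had 3081, 2887 and 3259 after cisplatin and 2986, 2982 and 2888 in control cells (log2 fold 0.06, 95% interval -0.09 to 0.20). PKM had 1893, 2319 and 2233 after cisplatin and 2766, 2391 and 1911 in control cells, a range within the controls alone that covered all but the lowest cisplatin value (log2 fold -0.12, 95% interval -0.41 to 0.17). The PKM fold was 0.0020 without control 1 and -0.03 without cisplatin 1, but -0.26 without control 3. LDHB averaged 4873 ± 415 after cisplatin and 4835 ± 559 in control cells (log2 fold 0.01), and LDHC, the testis subunit, 90.9 ± 21.2 after cisplatin and 89.8 ± 8.22 in control cells (log2 fold -0.0012).

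Of the other phosphofructokinase genes, the muscle form PFKM averaged 286 ± 22.1 after cisplatin and 261 ± 27.9 in control cells (log2 fold 0.13), and the liver form PFKL 65.9 ± 20.6 after cisplatin and 59.95 ± 9.01 in control cells (log2 fold 0.09). The third hexokinase, HK3, averaged 51.2 ± 14.8 after cisplatin and 49.2 ± 6.81 in control cells (log2 fold 0.03). ALDOC, a brain form of aldolase, had the highest fold of the list, 35.0 ± 2.88 after cisplatin and 28.5 ± 4.87 in control cells (log2 fold 0.22, 95% interval -0.17 to 0.61). The neuronal enolase ENO2 had 205 ± 22.9 after cisplatin and 176 ± 5.62 in control cells (log2 fold 0.20, 95% interval -0.09 to 0.49), and the muscle enolase ENO3 had a log2 fold of 0.09. BPGM, whose enzyme makes 2,3-bisphosphoglycerate in red cells, had a log2 fold of 0.12. GAPDHS, the form of sperm, PGAM2, the form of muscle, and PKLR, the pyruvate kinase of liver and red cells, were too dim for the test, with means of 15.5, 15.5 and 16.6 after cisplatin and 7.50, 12.7 and 17.5 in control cells.

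Among genes that set the flux, TIGAR stood out in size. It had 514, 412 and 434 after cisplatin, against 178, 264 and 281 in control cells. All 3 cisplatin values lay above all 3 controls, but the control values were uneven. The log2 fold was 0.90 (95% interval 0.51 to 1.29) and did not pass in limma (adjusted p = 0.104). It passed in 3 of 19 alternative settings, without both control 1 and cisplatin 2 (log2 fold 0.77, adjusted p = 0.0401) and with the 3′/5′ ratio of ACTB (0.70, adjusted p = 0.0151) or of GAPDH (0.75, adjusted p = 0.00457) in the model, and its adjusted p over all 19 ranged from 0.00457 to 0.461. In this list 14 genes were tested, 0 passed and 1, TIGAR, reached an unadjusted p under 0.05, beside 5.03% of all tested probe sets. The median log2 fold of the 14 was 0.07. PFKFB1, a kinase and phosphatase that makes and removes the activator fructose 2,6-bisphosphate, came next by p, with a log2 fold of 0.37 (adjusted p = 0.999) at 43.6 ± 6.46 after cisplatin and 31.6 ± 9.47 in control cells. Its log2 fold was 0.18 without control 1 and 0.09 without both control 1 and cisplatin 2. Its bright relative PFKFB3, picked here after its values were seen, had 1518, 1412 and 1506 after cisplatin and 1597, 1614 and 1605 in control cells (log2 fold -0.12, 95% interval -0.28 to 0.04, adjusted p = 0.999). Of the 14 genes 3 had groups that did not overlap, PFKFB3, TIGAR and PDK2, beside 11.0% of all tested probe sets. PDK2 averaged 30.6 after cisplatin and 22.2 in control cells (log2 fold 0.34).

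In the neighbouring lists, too, 0 genes passed in limma. Transport of glucose and lactate had 6 tested genes with 0 at an unadjusted p under 0.05 and a median log2 fold of 0.16, with SLC2A8, an intracellular transporter, at 0.39 (adjusted p = 0.982) and the fructose transporter SLC2A5 at 0.32 (adjusted p = 0.999). Without control 1 and cisplatin 2 these folds were 0.15 for SLC2A8 and 0.02 for SLC2A5. SLC2A8 was at 0.20 without control 1 alone, and SLC2A5 at 0.10 without cisplatin 2 alone. The pentose phosphate branch, which draws on glucose 6-phosphate for NADPH and ribose, had 7 tested genes, 0 at an unadjusted p under 0.05 and a median of 0.02. Its lowest p values were those of PRPS2, which makes phosphoribosyl pyrophosphate, at 0.29 (adjusted p = 0.977) and of H6PD, a hexose 6-phosphate dehydrogenase of the endoplasmic reticulum, at 0.34 (adjusted p = 0.999), or 0.14 without cisplatin 2. Gluconeogenesis and glycogen had 11 tested genes, 0 at an unadjusted p under 0.05 and a median of 0.02, with the pyruvate carboxylase gene PC at -0.24 and the glycogen branching enzyme gene GBE1 at -0.14 (both adjusted p = 0.999). The fold of GBE1 was -0.03 without cisplatin 2.

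The list of hypoxia factors and their targets was read because HIF-1 drives much of glycolysis. It held 12 tested genes with a median log2 fold of 0.06, and 0 were called by limma, although 2 reached an unadjusted p under 0.05, beside 5.03% of all tested probe sets. These 2 were P4HA2, a collagen prolyl hydroxylase gene, with 284, 308 and 323 after cisplatin and 245, 236 and 210.3 in control cells (log2 fold 0.39, adjusted p = 0.611), and ADM, which encodes the peptide adrenomedullin. ADM had 560.2, 474 and 584 after cisplatin and 346, 425 and 443 in control cells (log2 fold 0.41, adjusted p = 0.656). In both genes, named for their low p, the cisplatin values lay above all control values, and groups were separated in 11.0% of all tested probe sets.

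The 3 genes outside the list whose centred log2 profile lay nearest to the mean profile of the 9, over the 6 arrays and among 5905 probe sets, were ATF4, GSTZ1 and NSFL1C, at root mean square differences of 0.0159, 0.0224 and 0.0227 on the log2 scale. ATF4, a transcription factor of the amino acid and stress response, had 1823, 1932 and 1917 after cisplatin, against 2022, 1988 and 1863 in control cells (log2 fold -0.05). The log2 folds of GSTZ1, an enzyme of tyrosine breakdown, and NSFL1C, a cofactor of the ATPase p97, were -0.03 and -0.05. With so few arrays the likeness describes these arrays only.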

How the data were processed

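Total RNA of A549 cells was labelled from an oligo-dT primer with a T7 promoter, per the labels' protocols, and measured on 6 biotin arrays. The values deposited are probe set intensity values on a linear scale from -512.3 to 9153, of which 1.37% are at or below 0; for the authors' summarisation software and scaling, nothing is given in the sources used here. Before log2, negative values were replaced by 0 and 11.8, the 10th percentile of positive values, was added as an offset, which understates the folds of dim genes. Arrays were used as deposited, their 75th percentiles lying within 0.15 (log2) where 0.3 was the limit for centring them. Besides 47 control probe sets, 8746 were present, and the 6559 at or above the 25th percentile of mean log2 were tested. Names came from the platform's probe table (7840 with 1 symbol, 388 with several, 518 with none), updated through Entrez identifiers in the RefSeq table (7838 matched, 0 changed). A gene with several probe sets was represented by its brightest.

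The cisplatin arrays were set against the control arrays with limma 3.58.1 and R 4.3.3 (lmFit, eBayes with intensity trend, two-sided), with Benjamini-Hochberg adjustment over all tested probe sets; 14 were called higher and 5 lower. An exact test of 3 against 3 cannot go below 0.1 and was not used. In simulated data of 6559 probe sets with 200 changed, 44.6% of 1.5-fold and 89.2% of 2-fold changes were recovered, 6.44% of calls were false and 94.8% of the 95% intervals of changed probe sets held the true value. Noise was drawn for each probe set separately, so differences common to a whole array were left out of the simulation. On the measured arrays the first principal component held 39.9% of the variance. These shares describe the simulated data only, and recovery on the measured arrays was not tested. The p-values set each group difference against the spread between these arrays, which limma draws toward the intensity trend over all tested probe sets. Alternatives changed the scaling, offset, filter and variance prior, added a replicate block or a 3′/5′ ratio, and left out arrays. Figures were drawn with matplotlib 3.10.9.

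The genes and lists were chosen with earlier results of these data known, so counts over a list are given without a test of the list. The rule for named genes took all 10 genes, all measured genes of the list of other glycolysis genes, in each other list those past the threshold or else the 2 with the lowest unadjusted p, CDKN1A, ACTB and the 3 genes nearest in profile. The remaining lists held glucose and lactate transport, regulators of flux, the pentose phosphate branch, gluconeogenesis and glycogen, hypoxia, reference genes, lung epithelial identity and other cell types. Of the tested markers, 0 of 12 epithelial and 0 of 8 other markers passed; lowest by p were SFTPB (log2 fold 0.55, adjusted p = 0.789) and AQP3 (0.35, adjusted p = 0.982, with 0.30 in its dimmer probe set) among epithelial and ACTA2 (0.47, adjusted p = 0.664) and CD3E (0.18, adjusted p = 0.999) among other markers.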

Additional observations from a re-analysis of the deposited data

How the results depend on the processing

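Over 19 alternatives the 9 tested genes gave 170 log2 folds between -0.22 and 0.17; 0 passed the threshold in limma and 1 reached an unadjusted p under 0.05 (ENO1 without cisplatin 2). The sign differed from that reported in 18 of the 170, of which 6 were TPI1 and 4 PGK1, and the 95% intervals stayed between -0.44 and 0.45. Their median log2 fold of -0.04 was -0.12 with arrays centred on the median, where the median of all tested probe sets moved from 0.04 to -0.03, and -0.05 to -0.01 when each array was left out in turn. The other lists had 0 genes past the threshold, 0 to 0 with each array left out, and 1 gene, TIGAR, without control 1 and cisplatin 2 together and 1 with either 3′/5′ ratio in the model.

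Over all probe sets, 19 passed as reported, 8 without the intensity trend and 11 after centring arrays on the median. With the ACTB 3′/5′ ratio in the model 47 passed, and 41 with that of GAPDH. With each array left out in turn 6 to 18 passed. The counts were 6 without control 2 or cisplatin 1, 7 without cisplatin 3, 8 without control 3, 11 without cisplatin 2 and 18 without control 1. Without control 1 and cisplatin 2 together 20 passed. The cause of these differences was not tested. In the fit with a replicate block 5 passed, 0 of them among the 9 genes. The labels do not pair the numbers, and deviations of arrays with equal numbers correlated at -0.56, -0.31 and -0.12, so the block is no measure of the effect. Centring on ACTB was not run, since ACTB had no probe set of its own outside the controls, and averaging probe sets of a gene could not change the 9 values, since each of these genes had 1 tested probe set. Signal over background limits HK2 and the other dim forms.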
